A study of Mus musculus with 5 samples.

Results

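The regions described here were peaks of the poly(A)-binding protein PABPC1 that lay in a 3′ UTR and close to the end of a transcript. A peak was a member when the deposited annotation placed it in a 3′ UTR, when it lay inside the transcript listed beside it, and when its midpoint was at most 200 bases from that transcript's 3′ end. The rule found 1110 of 14092 PABPC1 peaks (7.88%, Wilson 95% interval 7.44 to 8.33%), in 769 genes. The study made eCLIP libraries, which sequence the fragmented RNA that comes down with an antibody and, beside it, an input taken from the lysate. All came from GC-2spd(ts), an immortalised line whose labels describe it as mouse spermatocyte cells. The groups were 1 PABPC1 immunoprecipitation with 1 PABPC1 input, and 2 CCT3 immunoprecipitation samples (CCT3 and CCT3-2, which share a library name) with 1 CCT3 input. CCT3 is a subunit of the TRiC/CCT chaperonin. Labels give no treatment or genotype, and PABPC1 has a single peak list, so no difference below has a replicate check. The depth of the libraries is unknown here.

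PABPC1 coats the poly(A) tail that is added to an mRNA after cleavage at its 3′ end, and there it bridges to the translation initiation machinery and to the deadenylases that shorten the tail. Cleavage is directed by a hexamer, most often AAUAAA, that lies a short way upstream of the cut. The tail itself is not written in the genome, so reads of tail-bound RNA can be placed only on the sequence before it. In male germ cells, mRNAs are often stored and translated long after they are made, and their tails and 3′ UTRs are known points of control.

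One member could be shown with its sequence, because the RefSeq promoter windows (GRCm38.p6, the assembly that mm10 names) covered only this 1 peak in full. It lay in Defb36, a beta-defensin gene whose end overlaps the span of another RefSeq gene, at chromosome 2, 152612617 to 152612723, on the plus strand in mm10. The bases 152612694 to 152612723 are given 5′ to 3′ on that strand with the poly(A) signal hexamer in capitals, to show where a near-end peak lay relative to such a signal.

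Defb36: ttgagttcagtcAATAAAcgtgcttgccca

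The hexamer was inside the peak and its last base was 18 bases before the listed transcript end. This peak had a log2 fold over input of 3.57, below the median of the near-end peaks, and a −log10 p of 13.7, above their median. Both AATAAA and ATTAAA were searched on the transcript strand, and ATTAAA was not among these letters. Of all 32851 promoter windows of 300 bases, 11.3% held AATAAA and 7.68% held ATTAAA when read on their own strand. The match is a description of this 1 window.

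The rule reached a limited slice of PABPC1 binding in 3′ UTRs. The deposited annotation placed 11263 peaks in 3′ UTRs, but only 2682 of these (23.8%) lay inside the transcript listed beside them. Of those 2682, the near-end peaks were 41.4% (39.5 to 43.3%) and the other 1572 lay farther from the end. A further 576 peaks had their midpoint beyond the listed end by no more than 200 bases, and are not members. Of the 769 near-end genes, 767 were protein-coding in RefSeq, which is 3.5% of 21900 protein-coding genes. None of the near-end peaks overlapped a microRNA hairpin of the RefSeq table.

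The listed ends were not always the last end of a gene. Of 770 listed transcripts with a near-end peak, 417 (54.2%) ended within 10 bases of the RefSeq gene span, and 226 (29.4%) ended more than 200 bases short of it. Among the 640 near-end peaks on transcripts that ended at the end of the RefSeq span, the median log2 fold was 4.51 (4.42 to 4.65). It was 4.19 (4.07 to 4.31) in the 300 peaks on transcripts that ended more than 200 bases short. A log2 fold of 5 or more was reached by 32.7% of those 640 peaks and by 24% of those 300, a difference of 8.66 percentage points (Newcombe 95% interval 2.42 to 14.5).

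The near-end peaks were most frequent 25 to 50 bases from the transcript end and least frequent right beside it. Their midpoints lay 12 to 200 bases from the end, with a median of 83 bases and a middle range of 47.6 to 131 bases. The distance chose the members, so this is a description. A member must also lie wholly inside its listed transcript, so a midpoint right beside the end needs a narrow peak. Peaks that crossed the end were left out, and the low count beside it follows in part from this rule. In the 25 bases next to the end there were 48 midpoints, the fewest of the 8 steps of 25 bases. Between 25 and 50 bases there were 257, and in the outermost 25 bases of the window there were 84. The peak edge facing the end was 55 bases from it at the median. In 158 peaks (14.2%) that edge was within 10 bases of the end, and 6 peaks ended exactly there. At the limit itself, peaks of Bend4 and Slc25a39 at 200 bases had log2 folds of 6.36 and 3.70, and those of Sox3, Dmrtc1a and Atp6v1d at 198.5 bases had 6.59, 4.99 and 3.63. Just outside, Siah1b, Cul4a, Arf6 and Commd7 at 200.5 bases had 4.81, 3.21, 3.19 and 3.09, and Foxo6 at 201.5 bases had 4.60.

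**Figure D1:**
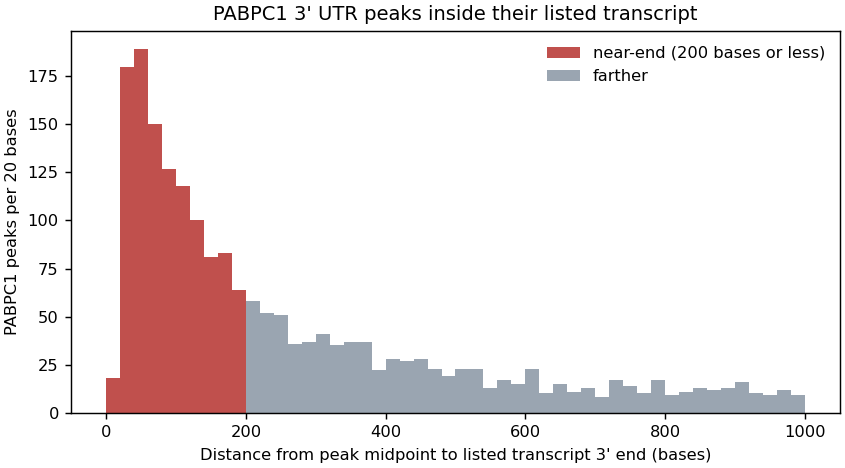
Number of PABPC1 3′ UTR peaks inside their listed transcript per 20 bases of distance from the peak midpoint to the transcript's 3′ end, up to 1000 bases. Red bars are the 1110 near-end peaks and grey bars are farther peaks; the first 75 bases hold 500 of the near-end peaks, of which 48 lie within 25 bases of the end.

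The 8 highest folds among near-end peaks lay in 5 genes, of which Mrto4, Cct2 and B3gnt4 each held a pair of abutting peaks. All folds are the authors' values for each peak, as log2 of the immunoprecipitation over input. Mrto4, a ribosome assembly factor gene on chromosome 4, had log2 folds of 11.94 at 139347465 to 139347499 and 11.91 at 139347461 to 139347464, a stretch of 4 bases. Cct2, which encodes a subunit of the same chaperonin as CCT3, had 9.33 at 117051048 to 117051062 on chromosome 10 and 9.28 in the peak next to it. These 2 Cct2 peaks were the closest to the end, and the fold was smaller with each further step away from it, at 6.95 with the midpoint 74.5 bases away, 5.62 at 110.5 bases and 3.88 in a farther peak at 220 bases. The gene D030056L22Rik had 9.07 at 50.5 bases from its end, 4.62 at 188 bases and 3.96 in a farther peak at 309 bases. Spata5, an AAA ATPase gene, had 8.33 at 114 bases and 7.56 at 78.5 bases, where the spans of 2 RefSeq genes overlap. The 2 remaining peaks of the highest 8, in B3gnt4 at 8.69 and 8.30, were on the strand opposite to that transcript.

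Most near-end genes had 1 near-end peak, and a few carried a row of them. There was 1 such peak in 527 genes (68.5%), 2 in 178 and 3 or more in 64, among them 10 genes with 5 or more. Insl3, the Leydig cell peptide hormone gene, had 7, which lie where the spans of 2 RefSeq genes overlap. From the farthest to the closest to the end, their log2 folds were 4.74, 4.21, 5.29, 4.89, 5.84, 6.41 and 6.79. Dazl, an RNA-binding protein gene of germ cells, had 14 listed PABPC1 peaks, of which 5 were near-end peaks. None of the others was a farther 3′ UTR peak inside the listed transcript. The near-end folds were 4.24 at 169.5 bases, 5.29 at 136 bases, 6.56 at 89.5 bases, 7.53 at 72 bases and 6.62 at 45 bases. In both genes the lowest folds were in the outer part of the window and the highest within 75 bases of the end. Ldhal6b, a lactate dehydrogenase-like gene whose peaks lie in 3 overlapping spans, had 3.18 at 122 bases and 6.30 at 26.5 bases. The gene 1700102P08Rik had 5.99 at 181 bases and 7.81 at 29 bases. Banf1, the gene of a DNA-bridging nuclear assembly factor, had 6 peaks with folds of 4.49 at 165 bases, 5.71 at 75 bases and 5.33 at 43.5 bases. These genes were named for their number of peaks, with ties ordered by the highest fold.

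**Figure D2:**
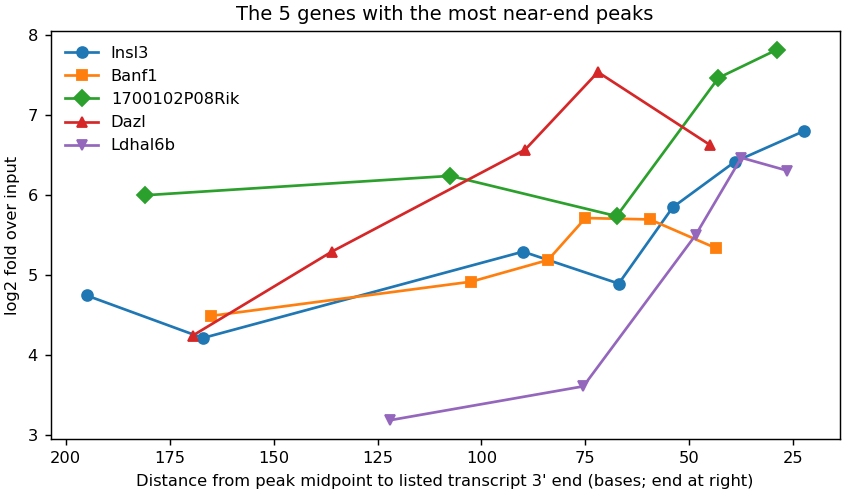
Authors' log2 fold over input of each near-end peak (vertical axis) against the distance of its midpoint from the listed 3′ end in bases (horizontal axis, end at the right), for the 5 genes named for the most near-end peaks (ties ordered by fold). In each gene the peak closest to the end is higher than the one farthest from it, as in Insl3 with 6.79 against 4.74.

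Within the near-end window, folds were higher close to the end. The 500 peaks with a midpoint within 75 bases had a median log2 fold of 4.59 (4.46 to 4.73), and the 610 peaks between 75 and 200 bases had 4.25 (4.16 to 4.34). A log2 fold of 5 or more was reached by 36.0% of the closer peaks (31.9 to 40.3%) and by 22.5% of the others (19.3 to 25.9%), a difference of 13.5 points (8.18 to 18.9). By 25-base steps the median was 4.66 between 25 and 50 bases, 4.49 between 50 and 75 bases and 4.17 between 75 and 100 bases. Beyond that it stayed between 4.12 and 4.33 in every step out to the most distant peaks. Intervals of medians are from order statistics, and they cover counting error only, as do all intervals here. Neighbouring peaks of a gene are not independent, and PCR reads without molecular identifiers are not independent molecules. Whether such identifiers were used remains not given in the sources used here.

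The same order was seen among peaks of 1 gene. In 242 genes with 2 or more near-end peaks, the peak closest to the end had the higher fold in 155 (64.0%, 57.8 to 69.8%), when set against the near-end peak farthest from it. The median difference was 0.39 (0.25 to 0.54) on the log2 scale, with medians of 4.85 for the closest and 4.32 for the farthest. In the 64 genes with 3 or more, it was the higher in 40 (62.5%, 50.3 to 73.3%).

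**Figure D3:**
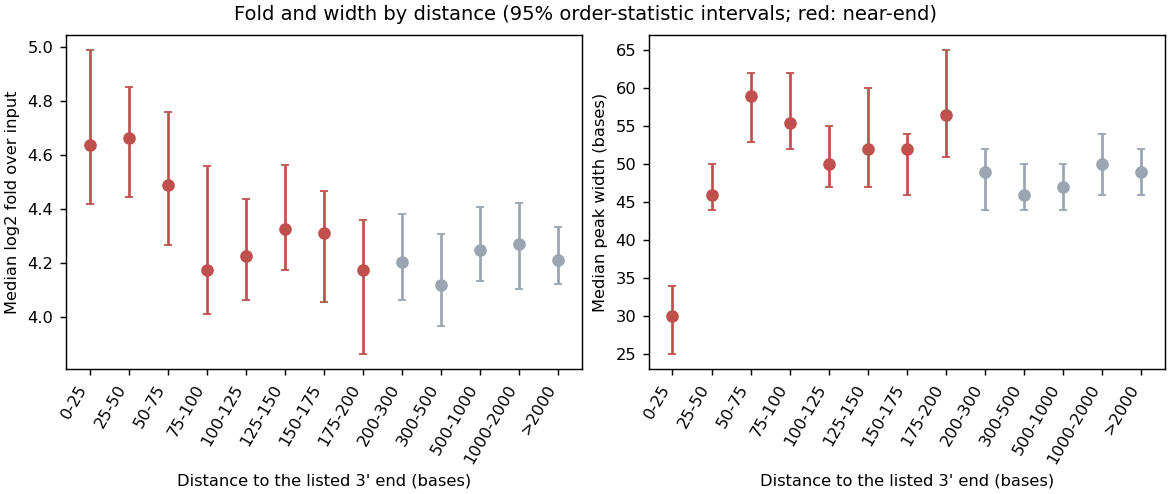
Median log2 fold over input (left) and median peak width in bases (right) of PABPC1 3′ UTR peaks by distance of the midpoint from the listed 3′ end, with 95% order-statistic intervals as bars. Red points are near-end peaks and grey points are farther ones; fold is highest within 75 bases, and width is lowest, at 30 bases, within 25 bases, where a member cannot reach past the end.

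Over all genes together, near-end peaks had higher folds than farther 3′ UTR peaks, by a small margin. Distances run along the genome with introns, and 430 of the farther peaks lay more than 2000 bases from the end. Whether a farther peak lay in the same 3′ UTR as the listed end was not determined. The median log2 fold was 4.41 (4.31 to 4.46) in the 1110 near-end peaks and 4.21 (4.16 to 4.28) in the 1572 farther ones, with quartiles of 3.75 and 5.16 against 3.64 and 4.93. A log2 fold of 5 or more was found in 317 near-end peaks (28.6%, 26.0 to 31.3%) and 361 farther ones (22.96%, 20.95 to 25.1%), a difference of 5.59 points (2.24 to 8.98), where 24.5% of all PABPC1 peaks reached that fold. At 7 or more the shares were 3.24% and 1.40%, a difference of 1.84 points (0.704 to 3.15). When only the highest peak of each gene in each class was kept, the difference at 5 was −1.25 points (−5.92 to 3.41), so the direction depends on how peaks are counted. In that setting a gene with many farther peaks is represented by the highest of them. Farther genes had 5 or more farther peaks in 9.02% of cases, and near-end genes had 5 or more near-end peaks in 1.30%. Any part of these counts in the change of direction was not tested.

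**Figure D4:**
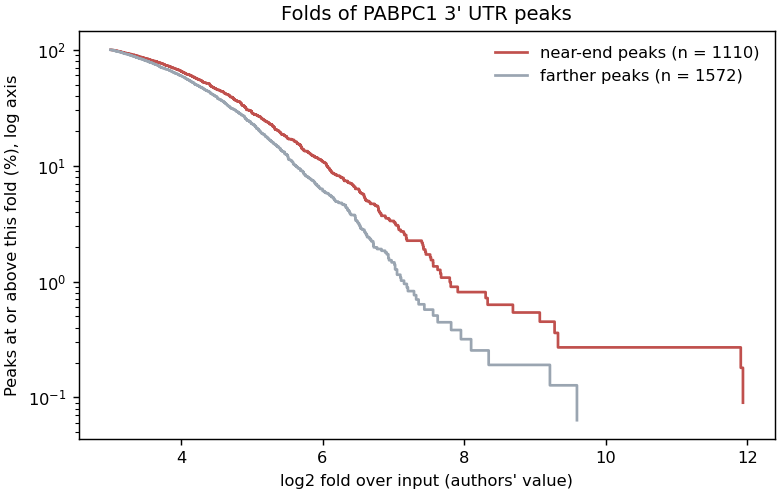
Percentage of peaks at or above each log2 fold over input (vertical log axis) for the 1110 near-end peaks (red) and the 1572 farther 3′ UTR peaks (grey). The red line lies above the grey one at folds of 4, 5, 6 and 7, with 10.8% against 6.17% at 6.

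Both kinds of peak could also be compared inside the same gene. Of the near-end genes, 243 (31.6%) also had a farther 3′ UTR peak inside the listed transcript. In 165 of these (67.9%, 61.8 to 73.5%) the median fold of the near-end peaks was above that of the farther peaks, and the median difference was 0.44 (0.27 to 0.55) on the log2 scale. In the 61 genes with exactly 1 peak of each kind, the near-end peak was higher in 40 (65.6%, 53.0 to 76.3%), with a median difference of 0.45 (0.15 to 0.64). With ends taken from RefSeq gene spans, 746 genes had both kinds, and the near-end median was above in 515 (69.0%, 65.6 to 72.2%). The near-end peaks of genes that had both kinds had a median fold of 4.67, and the farther peaks of these genes 4.19. In genes with only 1 kind of counted peak the medians were alike. They were 4.24 (4.13 to 4.34) for near-end peaks and 4.24 (4.16 to 4.31) for farther ones. Such genes could hold other listed peaks, since only 226 of the 769 near-end genes (29.4%) had 1 peak in the whole PABPC1 list.

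Single genes ran in both directions. Among 72 genes with at least 3 farther peaks, the highest near-end fold exceeded the highest farther fold in 25, a comparison of 1 or a few peaks with several. Glipr1l2 had a near-end peak at 7.66 and 5 farther peaks between 3.53 and 4.86. Prok2, a secreted peptide gene, had near-end folds of 6.60 and 5.86 and farther folds of 4.42, 3.05 and 3.85. Ndfip2, which encodes an adaptor of ubiquitin ligases, had 6.67 near its end and at most 4.91 elsewhere, Ccdc115 had 6.44 against at most 4.12, and Atxn7l3 5.99 against at most 4.07. These 5 genes were chosen for the largest difference of highest fold, near-end minus farther. Their highest near-end peak stood above every farther peak of the transcript by that choice. The next 5 were chosen for the smallest difference. In Atxn7l3b the near-end peak was at 3.77, whereas its 14 farther peaks reached 7.05 at 1360 bases from the end. Rnf138, a ubiquitin ligase gene, had 4.16 near the end and up to 7.19 among 9 farther peaks, and Lbr, the lamin B receptor gene, 4.27 and up to 7.03 among 7. The corresponding values were 4.41 and 7.29 in 4930579G24Rik and 4.33 and 6.72 in Fam241a.

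Near-end and farther peaks differed little in width. The median width was 51 bases (50 to 52) near the end, with a range of 3 to 216, and 48 bases (46 to 50) farther away, with a range of 4 to 253. The widest near-end peaks were in Fkbp3 with 216 bases, Ndufs4 with 197 and Gml2 with 195, at log2 folds of 4.16, 3.10 and 3.13. Of near-end peaks, 286 (25.8%) abutted another near-end peak with no base between, and of farther peaks 341 (21.7%) abutted another farther one. The deposited −log10 p had a median of 12.3 near the end and 10.9 farther away. It stood at its ceiling of 400 in 81 near-end peaks (7.30%) and 74 farther ones (4.71%), a difference of 2.59 points (0.780 to 4.52).

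Lengths of the listed transcripts, along the genome with introns, are given as a description, since a farther peak needs a transcript at least as long as its distance from the end. The median length was 4344 bases (4066 to 4918) for the 770 listed transcripts with a near-end peak and 7793 bases (7032 to 8713) for the 735 with a farther one. The length of the 3′ UTR was not used here, and its part in the share of near-end peaks was not tested. Of near-end peaks 7.93% lay in the span of more than 1 RefSeq gene, and of farther peaks 11.5%.

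A larger share of PABPC1 than of CCT3 peaks lay near transcript ends. By the same rule, near-end peaks were 41.4% of the 3′ UTR peaks inside their listed transcript for PABPC1 and 7.85% for CCT3 (58 of 739, 6.12 to 10.01%), a difference of 33.5 points (30.7 to 36.1). For CCT3-2 the share was 6.92% (76 of 1099), and PABPC1 minus CCT3-2 was 34.5 points (31.99 to 36.8). Since CCT3-2 shares its library name with CCT3, it is not counted as an independent replicate. Of 54 genes with a CCT3 near-end peak, 8 were among the near-end genes of PABPC1 (14.8%, 7.70 to 26.6%), and these were 1.04% of the 769. Of protein-coding genes with any listed PABPC1 peak, 15.5% had a near-end one, and of all protein-coding genes 3.5%. Near-end PABPC1 peaks overlapped a CCT3 peak by at least 1 base in 6 of 1110 cases (0.541%, 0.248 to 1.17%), against 6 of 1572 farther peaks (0.382%). The interval of the difference, 0.159 points (−0.377 to 0.825), spanned 0. With CCT3-2 peaks the overlaps were 4 of 1110 near-end peaks (0.360%) and 11 of 1572 farther ones (0.700%), and the difference of −0.339 points (−0.931 to 0.302) had the other sign and also spanned 0. Of the 6 near-end peaks that overlapped CCT3, the 5 with the highest PABPC1 fold were in Ier2 at 4.84, Anp32a at 4.73, Bclaf1 at 4.56, Gnl2 at 4.23 and Nat10 at 4.19. The Ier2 and Anp32a peaks also overlapped a CCT3-2 peak.

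Genes of the translation machinery were reached unevenly near their ends. Of 49 translation factor genes, 6 had a near-end peak (12.2%, 5.73 to 24.2%), beside 3.5% of all protein-coding genes. Among genes with any listed PABPC1 peak, wherever it lay, the share was 6 of 30 translation factor genes (20%, 9.51 to 37.3%) and 767 of 4948 protein-coding genes (15.5%), and the interval of the list held the share of all such genes. Eif1b, an initiation factor gene, had 3 of them at 7.91, 7.40 and 6.60, all with −log10 p at the ceiling, and 1 farther peak at 5.06. Eif3m, an initiation complex subunit gene, had 1 at 4.42, Gspt1, a termination factor gene, 1 at 4.15, and Eif4ebp1, a repressor of cap binding, 1 at 3.69. Of 83 ribosomal protein genes, Rpl22 alone had a near-end peak, at 4.08 (1.20%, 0.213 to 6.51%). Of the 43 with any listed peak it was 2.33% (0.412 to 12.1%), beside 15.5% of such protein-coding genes. Another 42 were listed with PABPC1 peaks outside the 3′ UTR peaks counted here, and for 34 of them these included a peak of the annotation's promoter class.

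Factors that act on tails and 3′ UTRs had near-end peaks of their own. Of 34 genes for tail binding and deadenylation, 4 had one (11.8%, or 22.2% of the 18 with any listed peak, beside 3.5% and 15.5% of protein-coding genes), namely Cnot3, a scaffold of the CCR4-NOT deadenylase, at 4.65, Pan3, a subunit of another deadenylase, at 4.00, Tut4, a terminal uridylyltransferase gene, at 3.54 and Paip2b, a PABPC1 inhibitor gene, at 3.45. Pabpc1 itself had 4 listed 3′ UTR peaks, all outside the listed transcript, so none was a member. Cct3 and Tug1, with 1 listed peak each and none in a 3′ UTR, had none either. Of 50 genes for mRNA decay and 3′ UTR binding, 3 had a near-end peak (6%, or 13.6% of the 22 with any listed peak). They were Tial1, a translational repressor, at 6.73, Ythdf2, a reader of m6A, at 6.52 and Hnrnpd at 4.72. Of 26 cleavage and polyadenylation genes there were 2 (7.69%, or 14.3% of the 14 with any listed peak). Ppp1cb, a phosphatase catalytic subunit gene, had 4 near-end peaks at 5.85, 7.03, 6.35 and 6.53 and 9 farther ones between 3.83 and 5.46. Papolb, the testis poly(A) polymerase gene, had 1 at 3.75.

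Splicing and chaperone genes were represented by several members. Of 38 hnRNP and SR protein genes, 9 had a near-end peak (23.7%, 12.99 to 39.2%), beside 3.5% of protein-coding genes. Of the 29 with any listed peak the 9 were 31.0% (17.3 to 49.2%), beside 15.5% of protein-coding genes with one. In Hnrnpa0 the only near-end peak was at 7.07, above all 13 farther peaks, which lay between 3.04 and 5.52. The highest near-end fold exceeded the highest farther one in 25 of the 72 genes with at least 3 farther peaks. Srsf5 had a highest near-end fold of 5.14, Tra2a of 5.11 and Hnrnpll of 4.80. Of 42 chaperonin and heat shock chaperone genes, 5 had one (11.9%), which is 16.1% (7.09 to 32.6%) of the 31 with any listed peak. Beside Cct2, these were led by Dnajc7, a co-chaperone gene, with 4 peaks up to 5.23, Hspa2, the testis Hsp70, with 3 up to 5.09 and 10 farther peaks, and Dnajb6 at 4.51. Of 38 cell cycle genes 2 had one (5.26%, or 10% of the 20 with any listed peak), Mcm4 at 4.84 and Cdk4 at 4.07. No near-end peak was found in 23 tubulin and actin genes (upper limit 14.3%), 61 matched replication-dependent histone genes (5.92%) or 10 matched mitochondrially encoded genes (27.8%). Any listed peak was present in only 10 of these tubulin and actin genes, 2 histone genes and 0 mitochondrially encoded genes. Among genes with any listed peak the upper limits were 27.8% for tubulin and actin and 65.8% for histones, both above 15.5%. Most replication-dependent histone mRNAs end in a stem-loop without a tail, and any part of this was not tested.

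The labelled cell type was checked against markers of testicular cells. Of 43 meiotic spermatocyte markers, 7 had a near-end peak (16.3%, 8.12 to 29.97%), which is 31.8% (16.4 to 52.7%) of the 22 with any listed peak. All protein-coding genes stood at 3.5%, or 15.5% of those with any listed peak. Sycp1, a synaptonemal complex gene, had 2 at 6.52 and 4.96, and Mael, a piRNA pathway gene, 3 at 5.21, 5.73 and 5.14, next to Dazl above and Ccna1 at 5.42. Sycp3, Dmc1, Stra8, Ddx4, Piwil1, Pgk2 and Ldhc had none. Of 23 spermatid markers 2 had one (12.5% of the 16 with any listed peak), Tssk2 at 5.32 and Odf1 at 3.38. Prm1, Prm2, Tnp1, Tnp2, Acrv1 and Akap4 had none. Of 16 Sertoli cell markers there were 4, which is 44.4% (18.9 to 73.3%) of the 9 with any listed peak. They were Aard up to 5.40, Inhbb up to 5.02, Cldn11 up to 4.48 and Sox9 at 3.19, while Wt1, Amh, Clu and Rhox5 had none. Of 9 Leydig cell markers there were 3, which is 42.9% (15.8 to 74.95%) of the 7 with any listed peak. They were Hsd3b1 at 4.40 and Hsd3b6 at 3.22, beside Insl3. Another 4 Leydig cell markers had listed PABPC1 peaks but no near-end one. Of 21 fibroblast markers only Sparc had one (10% of the 10 with any listed peak), with 4 peaks between 4.04 and 4.29. Col1a1, Col1a2, Vim, Fn1 and Thy1 had none. Near-end peaks were thus found in markers of all 5 cell types, and the part that other cells might have in them was not tested. A gene without a near-end peak is not shown to be unexpressed.

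**Figure D5:**
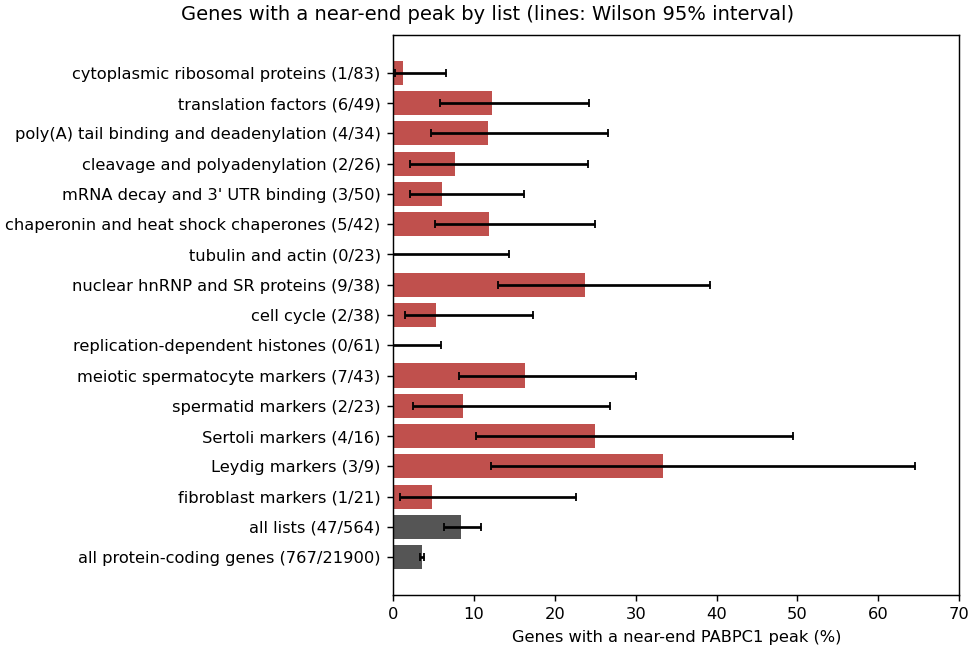
Percentage of the genes of each list with at least 1 near-end PABPC1 peak, with Wilson 95% intervals as lines and the counts in brackets, beside all lists together and all protein-coding genes in grey. Shares range from 0 in tubulin and actin genes to 33.3% in the 9 Leydig cell markers, and all protein-coding genes stand at 3.5%.

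The counts per list depended on how the end was placed. Over all lists, 47 of 564 genes had a near-end peak (8.33%), or 16.7% (12.8 to 21.5%) of the 281 with any listed peak, beside 3.5% and 15.5% of protein-coding genes. With ends taken from RefSeq gene spans 90 did (15.96%), where 7.23% of all protein-coding genes did. Chaperone genes then numbered 14 of 42, tubulin and actin genes 4 of 23, mRNA decay genes 8 of 50, tail factors 8 of 34, cell cycle genes 7 of 38, Sertoli markers 8 of 16 and fibroblast markers 6 of 21. The hnRNP and SR protein genes numbered 8 of 38 (21.1%), against 9 with the listed ends, while the share of all protein-coding genes was 7.23% against 3.5%. Ribosomal protein genes stayed at 1 of 83 and histone genes at 0.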

How the data were processed

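The authors deposited 3 peak lists, for PABPC1, CCT3 and CCT3-2. Of the steps before that, bcl2fastq 2.20 and mm10 appear, with no role given, in the submitters' processing notes. The peak caller, aligner and annotation tool remain not given in the sources used here. The deposited log2 fold was read as immunoprecipitation over input, and the deposited −log10 p has a ceiling of 400. In the PABPC1 table both columns are unnamed and were identified by the range of their values, and all PABPC1 peaks had both at 3 or more.

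The distance was taken along the genome, introns included, from peak midpoint to the listed transcript's 3′ end by the listed gene strand. Shares have Wilson and differences of shares Newcombe 95% intervals, and medians have exact binomial order-statistic intervals. No p-value was computed, since PABPC1 has 1 sample. RefSeq names and spans (GRCm38.p6) were matched by gene ID. Gene lists matched RefSeq for 564 distinct genes, among them 61 of 63 histone and 10 of 13 mitochondrially encoded genes. No genome sequence was used beyond the RefSeq promoter windows. Python 3.11.15, numpy 2.4.6, pandas 2.3.3, scipy 1.17.1 and matplotlib 3.10.9 were used, and the classification was tested on simulated data.

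The members and gene lists were chosen with earlier results of these data known. Named genes were those of the 8 highest folds, the 5 with most near-end peaks, the 3 widest peaks, 5 peaks on each side of the limit, the 5 largest and 5 smallest near-end minus farther differences, up to 4 per list, up to 5 that overlap CCT3, and Pabpc1, Cct3 and Tug1. Marker genes without a peak were named as well. The splits at 75 bases, by RefSeq end and by order within a gene, and the shares among genes with any listed peak, were chosen after seeing the data.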

Additional observations from a re-analysis of the deposited data

Results flagged for a closer look

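The strand of the peaks entered no main comparison, and 11 of 1110 near-end peaks (0.991%, 0.554 to 1.77%) were on the strand opposite to the listed transcript, against 131 of 1572 farther peaks (8.33%, 7.07 to 9.80%). They lay in B3gnt4, Fbxl22, Gdf1, Grpel1, Gtf3a, Il18bp, Phykpl and Samd11, and the 2 B3gnt4 peaks had the highest folds, 8.69 and 8.30. The gene that such a peak belongs to was not determined.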

How the results depend on the processing

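The 8 results were recomputed for 76 alternative values, of which 54 kept to the reported value's interval or to 1.5 times the reported count, 21 moved and 1 reversed. The reversed one is the share of peaks at a log2 fold of 5 or more, near-end minus farther, at −1.25 points with 1 peak per gene, against 5.59 as reported, and it was 9.44 points at a limit of 100 bases. At a limit of 500 bases it was 2.54 points, with an interval of −0.849 to 5.84 that spans 0. The near-end share of 41.4% became 24.8% and 61.2% at limits of 100 and 500 bases, 44.2% from the nearest peak edge, 51.2% with 1 peak per gene, 30.5% with ends of RefSeq gene spans and 43.3% on the transcript's strand. The median fold of near-end peaks became 4.51 at 100 bases, 4.53 with RefSeq ends and 4.9999 at a log2 fold of at least 4 and a −log10 p of at least 5, which removes low peaks. The median width became 55 bases with 1 peak per gene and 60 with peaks within 10 bases merged. Near-end genes numbered 1587 with RefSeq ends and 437 at the stricter threshold, and list genes 90 with RefSeq ends. Near-end genes with no farther peak were 54.1% at 100 bases, 83.7% at 500 bases, 53.0% with RefSeq ends and 74.1% at the stricter threshold. Overlap with CCT3 peaks was 0.151% at 100 bases and 0.176% with RefSeq ends. A changed limit or threshold alters by construction which peaks count, and the cause of the other changes was not tested. Keeping only peaks in the span of exactly 1 RefSeq gene, which leaves out those in several spans or in none, was added after seeing the data. It moved none of the 8 results. The within-gene share with the higher near-end fold ranged between 59.7 and 69.0% over these settings. No paired analysis was possible because PABPC1 has a single peak list and no samples could be paired, so the within-gene comparisons pair peaks of 1 sample. Depth is unknown, so a missing peak is not shown to be missing binding.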
